A study of Junonia coenia with 20 samples.

Results

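The transcripts described here are the 100 of 16251 listed for the hind wing of the common buckeye butterfly, Junonia coenia, that peaked most clearly in the pupal wing before pigment. They were chosen by their measured values. Each transcript was scored by its lowest level among the 4 pre-pigment libraries minus the highest of its mean levels in larval, early ommochrome and late ommochrome wings, on a log2 scale, and the 100 highest scores were taken. The pre-pigment peak itself is therefore a description of the choice and carries no test below.

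Polyadenylated RNA of hind wings was sequenced for 2 colour morphs, Linea and Rosa, at 4 stages, namely the imaginal disc of the fifth larval instar, the pre-pigment pupal wing, the wing at early (yellow) ommochrome development and the wing at late (orange/red) ommochrome development. Animals of a single North Carolina population were reared on artificial diet either at 21°C with 8 h of daily light (short, cool days) or at 27°C with 16 h (long, warm days), and the labels do not say which morph came from which regime, so that morph and rearing cannot be told apart here. Of 20 labelled samples, 16 had a column of values, which gave 2 libraries in each of the 8 groups of morph and stage; the other 4 were not analysed here. The labels leave unsaid if replicates were separate animals, pools or repeated preparations. The p-values below therefore describe how these libraries scatter, and that scatter may be technical.

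The pre-pigment pupal wing is the period in which the wing epithelium of a butterfly differentiates its scale and socket cells. Scale cells grow out, are shaped by bundles of actin filaments and secrete the cuticle of the future scale before pigment is laid down. Ommochromes, pigments made from tryptophan, follow later and colour the yellow, orange and red scales of nymphalid wings. Moulting hormone titres rise and fall over the same days, and many insect genes are known to be switched on briefly by such pulses. The deposited table gives each transcript an assembly identifier but neither a gene name nor a sequence, so nothing is said of what a member encodes and the labelled tissue could not be checked against marker genes.

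Values are RPKM, read counts corrected for transcript length and library size, divided by a factor for each library and called scaled RPKM below. Tests were made with limma on log2(scaled RPKM + 1) across 15798 transcripts, all 100 members among them, with Benjamini-Hochberg adjustment and a threshold of 0.05. Summed RPKM over the table ranged from 487429 to 832300 per library. RPKM keeps no read count, and 2595 of 260016 values lay above 0 and below 0.001 RPKM, too low for whole reads. The read depth behind each value is thus unknown.

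The members formed a small part of the pre-pigment transcriptome. Their share of the summed RPKM was 5.16% ± 1.32 (SD, n = 4) in pre-pigment wings, with single libraries at 3.75% and 5.91% in Linea and at 4.39% and 6.60% in Rosa. Outside that stage the share was 0.167% ± 0.101 (SD, n = 4) in larvae, 0.632% ± 0.362 in early and 0.327% ± 0.115 in late ommochrome wings (SD, n = 4 each). The 4 pre-pigment libraries lay above all 12 others. In bulk wings, fewer cells that express a transcript and less of its RNA per cell cannot be told apart.

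The median member moved from below to far above the typical transcript and back to near it. Its level was 1.45 ± 0.514 scaled RPKM (SD, n = 4) in larvae, 63.3 ± 2.32 in pre-pigment wings, 7.52 ± 2.65 at early ommochrome and 4.76 ± 1.33 at late ommochrome (SD, n = 4 each). The median of all tested transcripts stayed between 5.32 and 7.40 scaled RPKM in the 16 libraries. Between 30 and 47 members were under 1 scaled RPKM in a larval library, against 12 to 20 at early ommochrome, 18 to 25 at late ommochrome and none in the pre-pigment libraries. Of all tested transcripts, 15.8% to 20.8% were under 1 in a larval library, 12.8% to 19.2% at early ommochrome, 15.3% to 20.0% at late ommochrome and 17.4% to 26.0% in pre-pigment wings.

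**Figure D1:**
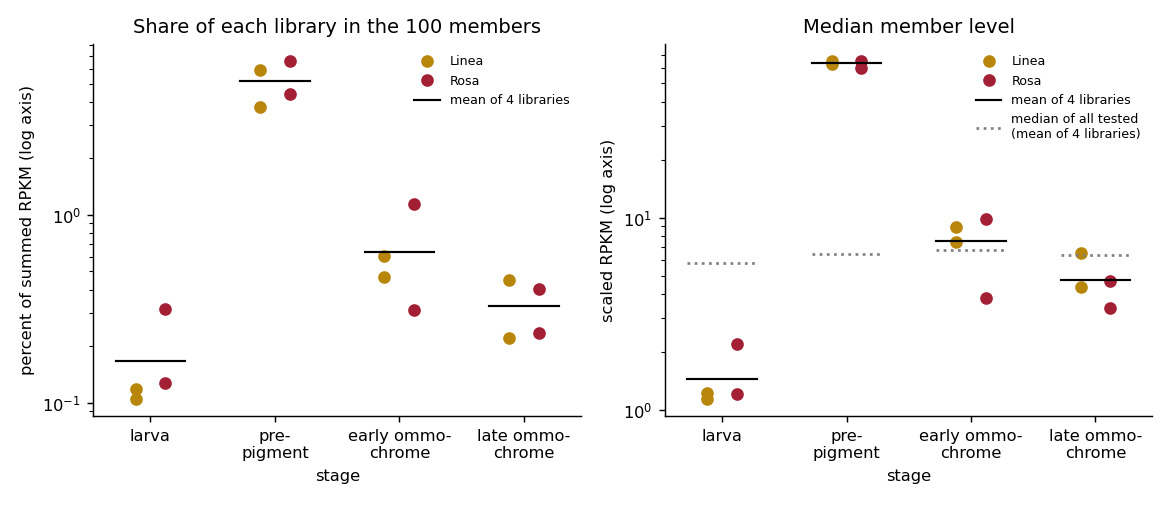
Left, percent of the summed RPKM of each library that the 100 members held, on a log axis, by stage; right, the median scaled RPKM of the members, on a log axis. Points are libraries coloured by morph, black lines are means of 4 libraries and dotted grey lines the mean over libraries of the median of all tested transcripts. The pre-pigment libraries sit at 3.75% to 6.60%, and the members' median falls from 63.3 to 7.52 and 4.76 scaled RPKM after the peak.

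Peak heights of the members covered several orders of magnitude. Mean pre-pigment levels ran from 7.14 to 21102 scaled RPKM with a median of 65.9; 5 members were above 1000, 39 between 100 and 1000, 52 between 10 and 100, and 4 under 10. Scores ran from 1.25 to 5.92 log2 units with a median of 1.89, and 43 members reached 2, 18 reached 3 and 3 reached 4. Among all listed transcripts, 814 had a score above 0 and 134 a score of at least 1. All 4 pre-pigment libraries lay above all 12 others in 82 members, a separation found in 1.28% of the tested transcripts and largely fixed by the rule.

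**Figure D2:**
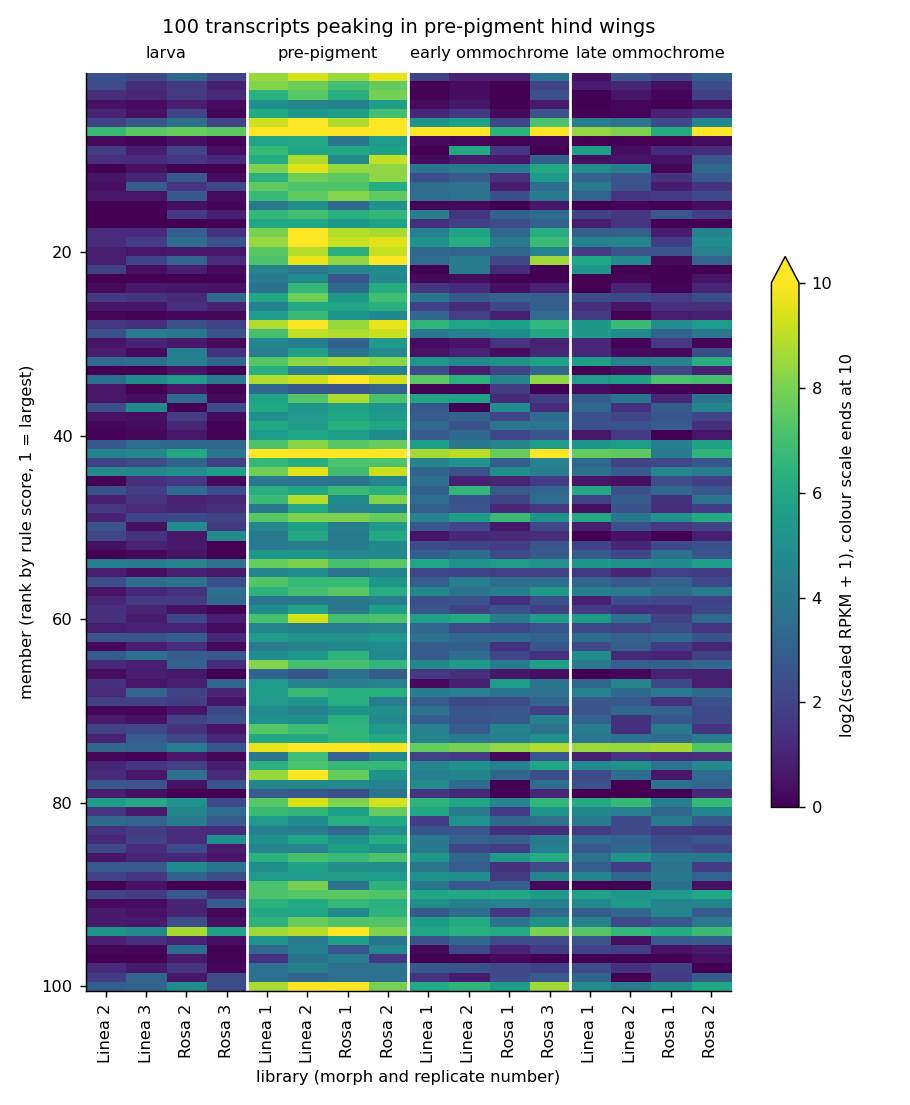
Heat map of log2(scaled RPKM + 1) for the 100 members, in rows by rule score, and the 16 libraries, in columns by stage, morph and replicate number. Colours end at 10. The 4 pre-pigment columns are the brightest in most rows, but rows of weak members are dark there too, such as JC_0030941 with 1.77 scaled RPKM in Linea replicate 1. The larval columns are mostly dark, and many rows keep an intermediate level in the ommochrome columns.

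The sharpest peak belonged to JC_0091895. It was at 341 and 647 scaled RPKM in Linea pre-pigment wings and at 354 and 790 in Rosa ones. In larvae it was at 4.49 and 3.48 in Linea and 9.14 and 3.04 in Rosa. At early ommochrome it stood at 2.99 and 0.884 in Linea and 0.850 and 12.6 in Rosa, and at late ommochrome at 0.382 and 5.23 in Linea and 2.98 and 6.92 in Rosa. The highest library outside pre-pigment was thus at 12.6, far below the lowest pre-pigment one. Among the other 99 members, JC_0091946 and JC_0097174 had the most similar course over the 12 libraries outside pre-pigment, with Pearson correlations of 0.84 and 0.75 with it on the log2 scale. These libraries share stages and scaling, and over all 4950 pairs of members the median correlation was 0.34, with quartiles of 0.02 and 0.62.

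JC_0096614 had the second highest score, 5.52 log2 units. Its pre-pigment level was 279 and 215 scaled RPKM in Linea and 133 and 193 in Rosa. In the 12 other libraries it did not exceed 4.09, and in 3 of the 4 early ommochrome libraries it was at 0.212 or less. The fourth, Rosa replicate 3, had 3.17.

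A few members were nearly silent outside the pre-pigment wing. JC_0101274, JC_0030879, JC_0097174, JC_0100356 and JC_0030941, named here because they are the whole count, were under 1 scaled RPKM in all 12 other libraries. JC_0030879 was at 55.9 and 64.1 in Linea pre-pigment wings and 13.5 and 40.8 in Rosa ones, and at most 0.311 elsewhere. JC_0030941 was the weakest of the 5, at 1.77 and 13.6 in Linea and 18.2 and 2.06 in Rosa pre-pigment wings. In larvae, 22 members were under 1 scaled RPKM in all 4 libraries and none was listed at 0 in all 4. The matching shares of all tested transcripts were not computed.

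JC_0091643 was by far the most abundant member and ranked between 3 and 7 among all transcripts of a pre-pigment library. It was at 15323 and 24213 scaled RPKM in Linea and 11703 and 33167 in Rosa pre-pigment wings. It alone made up 41.4% to 64.5% of the members' scaled RPKM there, and the other 99 members accounted for 2.48% ± 0.628 of all RPKM (SD, n = 4). In larvae it ranged from 104.7 to 204 scaled RPKM. At early ommochrome it was at 1777 and 1240 in Linea and at 88.3 and 3109 in Rosa, so the Rosa libraries lay on both sides of the Linea ones. At late ommochrome it was at 328 and 265 in Linea and 72.5 and 1200 in Rosa. The second most abundant member, JC_0092304, was steadier at the peak, at 2504 and 2652 in Linea and 2381 and 1937 in Rosa. It had 12.9 to 64.2 scaled RPKM in larvae. Early ommochrome levels were 404 and 502 in Linea and 201 and 1196 in Rosa, and late ommochrome ones ranged from 16.8 to 197.

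**Figure D3:**
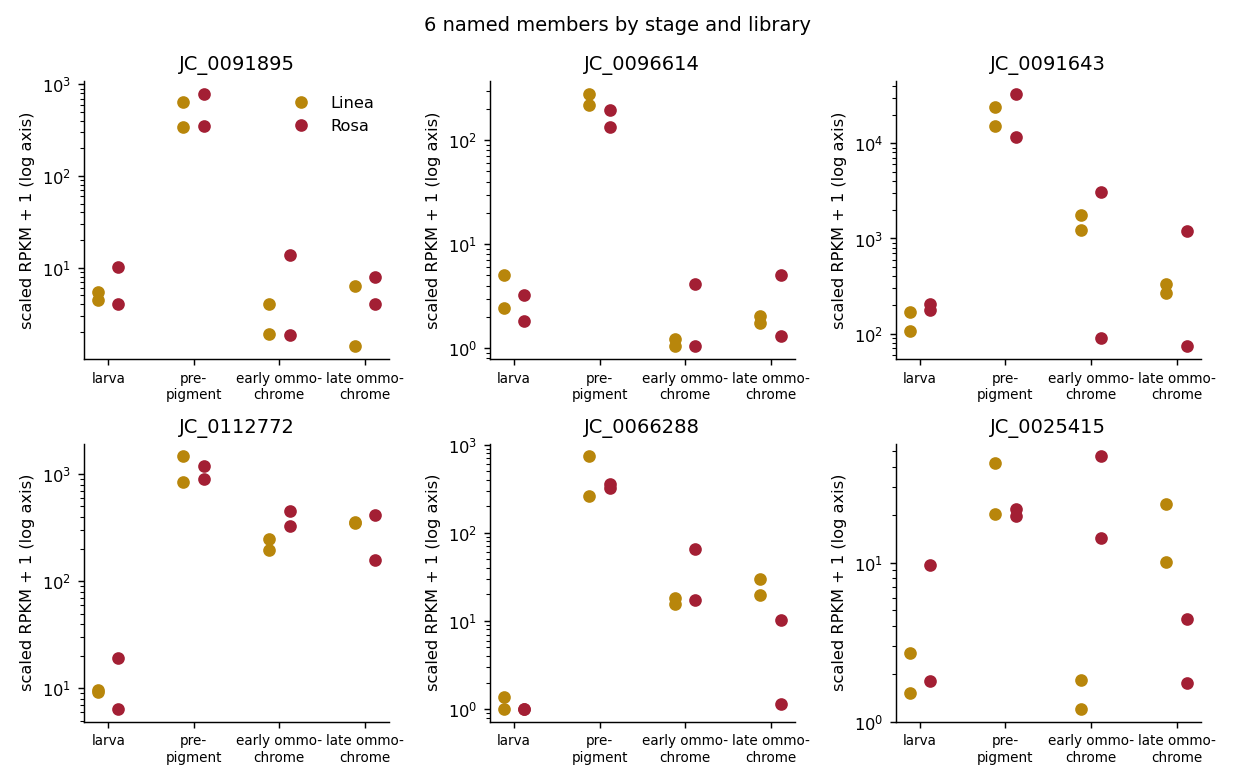
Scaled RPKM + 1, on a log axis, of 6 named members in each library, by stage and coloured by morph. JC_0091895, JC_0096614 and JC_0091643 had the 2 highest scores and the highest level. JC_0112772 stayed above every larval library after the peak. JC_0066288 had higher means than larvae at both ommochrome stages, but Rosa late ommochrome replicate 1 (0.145 scaled RPKM) lay below Linea larva replicate 3 (0.377). JC_0025415 has its early and late ommochrome levels in opposite order in the morphs.

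At the edge of the choice the peaks were modest. JC_0066000, at rank 99, was at 12.4 and 8.48 scaled RPKM in Linea and 11.7 and 12.8 in Rosa pre-pigment wings, and reached 8.31 in Linea late ommochrome replicate 1. JC_0023967, at rank 100, had 424 and 1689 in Linea and 1160 and 247 in Rosa pre-pigment wings but 378 in Rosa early ommochrome replicate 3. Just outside the limit, JC_0100252 was at 146 and 203 in Linea and 188 and 187 in Rosa pre-pigment wings and JC_0000544 at 5.02 and 74.2 in Linea and 8.24 and 63.8 in Rosa. Scores of these 4 transcripts fell between 1.23 and 1.26 log2 units, so the limit does not mark a gap. In 18 members at least 1 other library reached the lowest pre-pigment level or passed it; the highest was a larval library in 6 of them, an early ommochrome library in 10 and a late ommochrome library in 2.

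Within the pre-pigment stage the members differed in how well the libraries matched. The 4 libraries of a member spanned 0.17 to 6.67 log2 units with a median of 1.44, and lay within 1 log2 unit in 32 members and over more than 3 in 6. JC_0083373 was the most even, at 40.9 and 41.9 scaled RPKM in Linea and 46.0 and 40.7 in Rosa, followed by JC_0034679, at 147 and 162 in Linea and 175 and 153 in Rosa. JC_0032620 was the least even, at 349 and 3479 in Linea and 198 and 33.2 in Rosa. JC_0092023 split by replicate number instead, at 72.0 and 29.1 in the libraries numbered 1 of Linea and Rosa and 452 and 543 in those numbered 2.

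More members were higher in the pre-pigment libraries numbered 2. That was so for 65 members in Linea and 60 in Rosa, against 50.6% and 53.1% of the tested transcripts. The members' median log2 difference, replicate 2 minus replicate 1, was 0.42 in Linea and 0.16 in Rosa, against 0.01 and 0.09 for all tested transcripts. In 41 members replicate 2 was higher in both morphs, in 16 replicate 1 was higher in both, and in 43 the morphs differed in order. What the number stands for is not given in the labels, and its part in the members' levels was not tested. The rule picked 83 and 84 of the 100 members again without Linea pre-pigment replicates 1 and 2, and 71 and 73 without the Rosa ones.

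Whether such peaks recur in libraries that did not enter the choice was asked by applying the same rule to a single morph and measuring the result in the other, with scaling, filter and fit made in each morph alone. The 100 transcripts picked in Rosa were mostly high in Linea pre-pigment wings as well. There, 49 of the 100 were higher in pre-pigment wings than in the mean of the other stages (limma, adjusted p under 0.05), against 1.58% of the 15227 transcripts tested in Linea, and the median log2 difference was 2.62, with quartiles of 1.30 and 4.37, against -0.06 for all tested. The filter kept transcripts with 1 RPKM in 2 or more Linea libraries, so pre-pigment levels alone were enough to pass it. JC_0101274, JC_0030879, JC_0097174 and JC_0100356 passed only in that way, and each was called. How many of the 49 did so was not counted. Both Linea pre-pigment libraries lay above the other 6 in 60 of the 100, against 5.98% of all tested. A single one, JC_0057051, passed the threshold in the opposite direction (0.19% of all tested did), at -3.37 ± 0.63 log2 units (SE, limma adjusted p = 0.0456). It is no member of the 100 and is named because it is the whole count: it was at 2.07 and 6.87 scaled RPKM in Linea pre-pigment wings and 45.2 and 108.0 in Rosa ones. The count of 49 became 24 when Linea pre-pigment replicate 1 was left out and 14 when replicate 2 was. It became 0 with the replicate number as a block, which leaves 2 residual degrees of freedom. Differences between the numbered pre-pigment libraries correlated between the morphs at 0.38 over all tested transcripts. The libraries of the other morph may therefore not be fully independent of the choice, and what lies behind that correlation was not tested.

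In the other direction, 99 of the 100 transcripts picked in Linea passed the Rosa filter, which pre-pigment levels alone could again satisfy. Their median log2 difference was larger, 3.27, with quartiles of 1.63 and 4.27, against -0.14 for all tested, and 91 were on the higher side. Both Rosa pre-pigment libraries lay above the other 6 in 61 of them, against 5.23% of all tested. None passed the adjusted threshold in limma, nor did any of the 15281 transcripts tested in Rosa (0% called, with 0.0619 as the lowest adjusted p). Without adjustment, 73 of the 99 were higher at a p under 0.05, against 6.22% of all tested. The fit of 1 morph has 4 residual degrees of freedom, and in it the count rose from 0 to 19 without Rosa pre-pigment replicate 2. With scaling and spread taken from all 16 libraries, a setting chosen after seeing the data, 57 of the 99 were called in Rosa and 49 of 100 in Linea. That setting also draws on the libraries that made the choice, so its counts are a description and no held-out test. The share of all tested transcripts called under it was not computed. The lists picked in each morph shared 38 transcripts, and 59 of the Linea list and 56 of the Rosa list were among the 100 members.

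**Figure D4:**
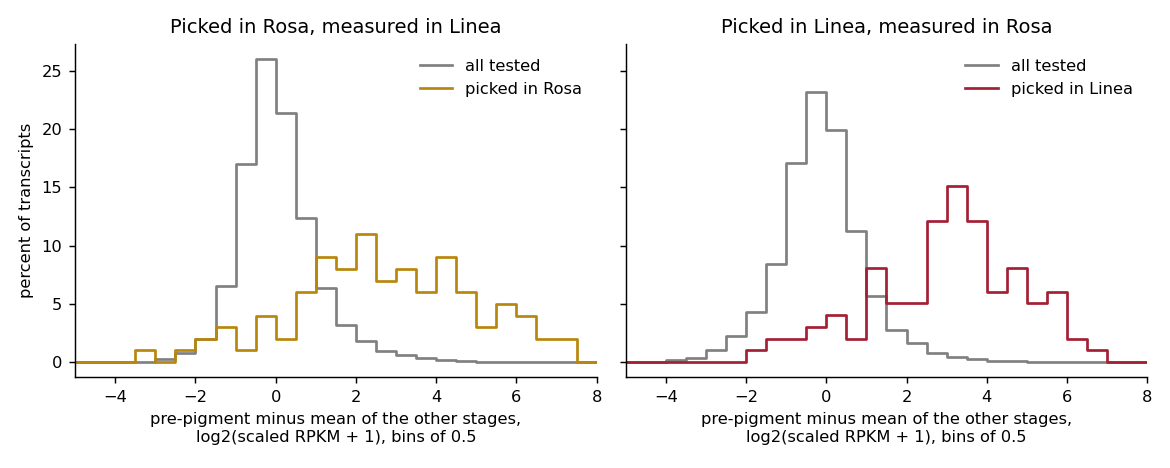
Distribution of the log2 difference between pre-pigment wings and the mean of the other 3 stages, in bins of 0.5, as percent of transcripts. Coloured lines are the 100 transcripts picked in Rosa and measured in Linea (left) and 99 picked in Linea and measured in Rosa (right), and grey lines all tested transcripts. The picked lists centre on 2.62 and 3.27 log2 units, the tested transcripts near 0.

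After the peak the members did not all return to their larval level. At early ommochrome 46 members were above larvae and none below (limma, adjusted p under 0.05), against 13.5% of the tested transcripts above and 12.1% below. The median log2 difference was 1.55 for the members and -0.03 for all tested transcripts, and single members ranged from -1.22 to 4.82. At an unadjusted p under 0.05, 59 members were higher and 1 lower, against 19.2% and 18.9% of all tested. The median of the members was 0.99 with RPKM as deposited and 2.09 with a pseudocount of 0.1. With RPKM as deposited, where the median transcript was shifted by -0.72 log2 units against larvae, 33 members were above and 2 below. There were 47 above and 1 below with quantile normalization, and 48 and 1 in a fit of the compared groups only. Shares of all tested transcripts were not computed under these settings. The rule caps the highest of the larval, early and late means, so it bounds these levels but sets no order among them.

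At late ommochrome 26 members were still above larvae and none below, against 12.3% of the tested transcripts above and 12.3% below. All 26 were among the 46 called at early ommochrome, 20 were called at early ommochrome alone, and 54 at neither stage. Those 54 include the 5 members under 1 scaled RPKM in all 12 libraries outside pre-pigment, where little difference could be measured. Not being called thus does not show a return to a measurable larval level. The median log2 difference was 0.93 for the members and -0.11 for all tested transcripts, with a range from -1.92 to 4.87, and at an unadjusted p under 0.05 there were 35 higher and 1 lower, against 17.5% and 19.8% of all tested. That median was 0.46 with RPKM as deposited and 1.43 with a pseudocount of 0.1. On the log2(scaled RPKM + 1) scale, 48 members were at least 2-fold above larvae at late ommochrome, 49 within 2-fold and 3 at least 2-fold below. With RPKM as deposited, where the median transcript was shifted by -0.75 log2 units against larvae, 18 members were above and 3 below, and without Rosa larva replicate 3 the count was 17. Shares of all tested transcripts were not computed for the 2-fold counts or under these settings.

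JC_0112772 had the largest log2 difference from larvae among the called members at both ommochrome stages on the log2(scaled RPKM + 1) scale. It was at 8.73 and 8.33 scaled RPKM in Linea and 18.3 and 5.40 in Rosa larvae, and at 839.9 and 1469 in Linea and 1184 and 907 in Rosa pre-pigment wings. At early ommochrome it was at 196 and 246 in Linea and 329 and 449 in Rosa, and at late ommochrome at 358 and 350.4 in Linea and 414 and 156 in Rosa. The 3 levels did not overlap between larvae, ommochrome stages and pre-pigment wings. Its log2 difference from larvae was 4.82 ± 0.43 at early ommochrome (SE, limma adjusted p = 2.21e-05) and 4.87 ± 0.43 at late ommochrome (SE, limma adjusted p = 1.81e-05). At early ommochrome JC_0066288 passed it with a pseudocount of 0.1 (7.21 against 4.96), with RPKM as deposited (4.29 against 3.99), with the replicate number as a block (5.04 against 4.74) and without Rosa larva replicate 3 (4.44 against 4.43).

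JC_0066288 went from next to nothing in larvae, at most 0.377 scaled RPKM, to 261 and 736 in Linea and 355 and 323 in Rosa pre-pigment wings. Early ommochrome libraries had 14.4 and 17.1 in Linea and 16.3 and 65.0 in Rosa, all above every larval library, and 4.45 ± 0.64 log2 units above larvae on average (SE, limma adjusted p = 0.000522). JC_0091770 was at 2.80 ± 1.33 scaled RPKM in larvae, 718 ± 425 at the peak, 73.5 ± 24.0 at early ommochrome and 55.7 ± 37.6 at late ommochrome (SD, n = 4 each). Its log2 difference between late ommochrome and larvae was 3.77 ± 0.48 (SE, limma adjusted p = 0.000193). JC_0091895 and JC_0096614 behaved otherwise, with early ommochrome differences from larvae of -0.60 ± 0.69 and -0.93 ± 0.54 (SE, limma adjusted p = 0.557 and 0.234), neither past the threshold.

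**Figure D5:**
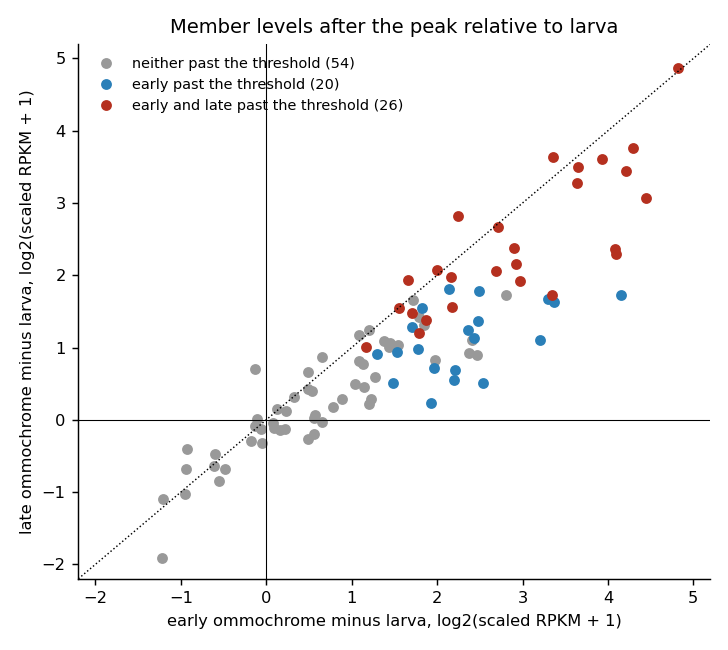
Log2 difference from larvae of each member at early (x axis) and late (y axis) ommochrome, both on the log2(scaled RPKM + 1) scale and averaged over morphs. Red points passed the limma threshold at both stages (26), blue points at early ommochrome alone (20) and grey points at neither (54); the dotted line marks equal differences. Most points lie below the line, that is, 83 members had a lower mean at late than at early ommochrome.

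Outside the peak, levels were most often highest at early ommochrome and lowest in larvae. The early ommochrome mean was the highest of the 3 remaining stage means in 75 members, the larval mean in 13 and the late ommochrome mean in 12, against 30.2%, 45.4% and 24.4% of the tested transcripts. The larval mean was the lowest in 78 members, a count without a computed share of all tested transcripts. The order early over late over larva held in 68 members and in 21.9% of the tested transcripts. The step from early to late ommochrome was not past the threshold in any member, nor in any tested transcript (limma, 0% called). Its median log2 change was -0.42 in the members and -0.06 in all tested transcripts. The mean was lower at late ommochrome in 83 members, a direction not counted over all tested transcripts. At an unadjusted limma p under 0.05 there were 13 lower and none higher, against 3.35% and 1.99% of all tested. The smallest p belonged to JC_0024930, at 6.26 and 9.62 scaled RPKM in Linea and 3.42 and 5.42 in Rosa at early ommochrome and at 0.527 and 2.47 in Linea and 0 and 0.494 in Rosa at late ommochrome. Those values do not overlap, yet the log2 difference of -2.03 ± 0.39 (SE) had a limma adjusted p of 0.337.

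Single libraries outside the pre-pigment stage held more of the members' RNA than their neighbours. Rosa larva replicate 2 had 0.317% of its summed RPKM in members, against 0.104% to 0.127% in the other 3 larval libraries, and was the highest larval library for 59 members and for 31.1% of the tested transcripts. Without it 46 members were above larvae and 1 below at early ommochrome, and 29 above and 1 below at late ommochrome. Rosa early ommochrome replicate 3 had 1.14%, against 0.310% to 0.603% in the other early ommochrome libraries, and was the highest of them for 44 members and for 23.2% of the tested transcripts. Rosa early ommochrome replicate 1 was the lowest for 52 members, with no share of all tested transcripts computed. Without replicate 3, 36 members were above larvae at early ommochrome. For the fits that left out a library, the shares of all tested transcripts called were not computed. The part of these libraries in single values of the members was not tested further.

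Between the morphs no member passed the threshold at any stage. In larvae 0 of 100 differed between Rosa and Linea (limma, 0.114% of the tested transcripts did). An unadjusted limma p under 0.05 was found for 6, all higher in Rosa, against 2.76% of all tested higher and 3.72% lower. In pre-pigment wings 0 differed, as did 0% of the tested transcripts. There, 2 had an unadjusted limma p under 0.05, both lower in Rosa, against 3.21% of all tested lower and 1.65% higher. The rule takes the lowest pre-pigment library of both morphs and so selects against a morph difference there, which makes these pre-pigment counts a description. At early ommochrome 0 differed against 0.0127% of all tested. Of 8 at an unadjusted limma p under 0.05, 4 were higher and 4 lower in Rosa, against 2.06% and 3.52% of all tested. At late ommochrome 0 differed against 0.00633%. All 5 at an unadjusted limma p under 0.05 were lower in Rosa, against 1.86% of all tested lower and 3.49% higher. The median log2 difference of the members, Rosa minus Linea, was 0.23 in larvae, -0.10 in pre-pigment wings, -0.17 at early ommochrome and 0.00 at late ommochrome. With 2 libraries per morph and stage, a p that misses the threshold does not show that levels were alike.

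The height of the peak was compared directly, as the pre-pigment level minus the mean of the other 3 stages in Rosa minus the same in Linea. No member passed the threshold, nor did any tested transcript (limma, 0% called). An unadjusted limma p under 0.05 was found for 2 members, both lower in Rosa, against 2.74% of all tested lower and 1.95% higher. This too is a description, for the same reason. The members' median difference was -0.15 log2 units, against -0.08 for all tested, with single members between -3.43 and 2.68. The smallest p was that of JC_0030879, whose peak in Rosa minus that in Linea was -1.35 ± 0.57 log2 units (SE, limma adjusted p = 0.997), with Rosa pre-pigment replicate 1 at 13.5 scaled RPKM below the other 3 libraries. JC_0032620, described above as the least even, had the smallest p between morphs within pre-pigment wings, where Rosa minus Linea was -3.74 ± 1.27 log2 units (SE, limma adjusted p = 0.928).

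At early ommochrome the member nearest to the threshold was JC_0025415. It was at 0.197 and 0.823 scaled RPKM in Linea and at 45.5 and 13.2 in Rosa, 4.12 ± 0.88 log2 units higher (SE, limma adjusted p = 0.181). Values of the morphs did not overlap, and with array weights, which let libraries count unequally, the limma adjusted p was 0.0394. Under the other alternatives it ranged from 0.0915 to 0.818, with 0.447 for the replicate block and the highest without Rosa early ommochrome replicate 1. At late ommochrome the order was the opposite, with 9.14 and 22.3 in Linea and 3.42 and 0.750 in Rosa. In pre-pigment wings it was at 41.5 and 19.3 in Linea and 18.6 and 20.7 in Rosa, all below the 45.5 of Rosa early ommochrome replicate 1. Its mean in Rosa was thus higher at early ommochrome, 29.4, than in pre-pigment wings, 19.6. JC_0066288 had the smallest p at late ommochrome, at 28.6 and 18.9 scaled RPKM in Linea and 0.145 and 9.16 in Rosa (Rosa minus Linea, -2.83 ± 0.91 log2 units, SE, limma adjusted p = 0.612). In larvae it was JC_0097307, at 0.241 and 0.271 in Linea and 1.01 and 6.54 in Rosa (Rosa minus Linea, 1.63 ± 0.57 log2 units, SE, limma adjusted p = 0.625).

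Members were unevenly spread over the identifiers of the assembly, a property the rule did not use. Identifiers from JC_0091000 to JC_0092999 held 25 of the 100 members but 4.72% of the listed transcripts, and those from JC_0023000 to JC_0025999 held 18 members and 5.34% of the listed transcripts. Both blocks were chosen after the members' identifiers were seen. Transcripts of these blocks were also more abundant in general, with a median pre-pigment mean of 28.8 and 20.2 scaled RPKM against 7.11 in the whole table, and 13.4% and 11.1% of them had a score above 0, against 5.01% of all. Of the 99 gaps between neighbouring members, 10 were of 20 identifier numbers or fewer, a count with no matching value computed for all listed transcripts. The meaning of the numbering is not given in the sources used here, and whether neighbouring identifiers are parts or forms of a single gene was not tested.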

How the data were processed

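Hind wing polyadenylated RNA was made into amplified, sheared cDNA libraries (fragments of 300 bp) and read from both ends at 75 bp or 100 bp, per the labels' protocols. The authors deposited RPKM values for each transcript of a de novo assembly. Bowtie 0.12.7 was used, per the submitters' processing notes. Read length by library, assembler, RPKM estimator and filters were not given in the sources used here. No pair of the 16 columns held identical values.

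A library's factor was the median of its ratios to row geometric means, taken where every library had at least 1 RPKM (7126 transcripts), and ranged from 0.578 to 1.81. Tests covered the 15798 transcripts with 1 RPKM in 2 or more libraries. They used limma 3.58.1 (R 4.3.3), log2 values after adding 1, a mean for each of 8 groups, moderated variances with an intensity trend and 8 residual degrees of freedom. Adding 1 makes fold changes of low transcripts look smaller. Altogether 8 comparisons were made: Rosa against Linea by stage, the difference in peak height, and 3 between larval and ommochrome stages. Scripts were tested on simulated data. Settings varied were the scaling (deposited RPKM, quantile), the pseudocount (0.1), the filter (none, or a mean of 5 RPKM), a replicate block, array weights, fits of the compared groups only and leaving out each library.

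Members, comparisons and naming rule were chosen with earlier results of these data known. Named were the 2 highest scores, the 2 transcripts on each side of the limit, the 2 most abundant, the 2 widest and 2 narrowest pre-pigment ranges, up to 2 called per direction and comparison (else the smallest p), and the 2 most like the top member. No gene list could be matched, since identifiers carry no names.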

Additional observations from a re-analysis of the deposited data

Results flagged for a closer look

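The named members and the members' summed share and median were examined in the 4 libraries of each stage, on the log2 scale for members, for a library whose gap to its nearest neighbour took up most of the range of the 4. Of 84 such groups 12 had one. The cut is passed by about 1 in 20 independent groups of normal values. These groups share the same 16 libraries, and several members were named for their values. The count of 12 can therefore not be weighed against that rate.

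Rosa early ommochrome replicate 3 stood above the other 3 early libraries in JC_0096614 (3.17 scaled RPKM against 0.0390 to 0.212), JC_0092023 (7.39 against 0.209 to 0.645), JC_0091946 (4.45 against 0 to 0.272) and JC_0066288 (65.0 against 14.4 to 17.1). Rosa early ommochrome replicate 1 stood below the others in JC_0083373, at 2.27 scaled RPKM against 23.4 to 31.2.

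Rosa late ommochrome replicate 2 stood apart in JC_0092023 (5.64 scaled RPKM against 0.364 to 0.486), in JC_0030879 (0.273, with the other 3 listed at 0) and, on the low side, in JC_0112772 (156 against 350.4 to 414).

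Rosa larva replicate 2 stood above the other larval libraries in the members' share of summed RPKM (0.317% against 0.104% to 0.127%) and in their median level (2.22 scaled RPKM against 1.14 to 1.22). JC_0066288 was at 0.377 scaled RPKM in Linea larva replicate 3 and at most 0.0150 in the other larval libraries. JC_0025415 was at 41.5 scaled RPKM in Linea pre-pigment replicate 1 and at 18.6 to 20.7 in the other pre-pigment libraries.

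In 2 named members the early and late ommochrome libraries did not overlap within either morph, and the step between them went in opposite directions in the morphs. JC_0025415 was higher at late than at early ommochrome in both Linea libraries and lower in both Rosa libraries. The difference between the steps, Rosa minus Linea, was -6.59 log2 units (SE 1.24, limma adjusted p = 0.284). In JC_0066288 it was -3.85 log2 units (SE 1.29, limma adjusted p = 0.669). Neither passed the threshold, nor did any member or other tested transcript in this comparison, which was added after the values were seen.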

How the results depend on the processing

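Without 1 library at a time, the number of members above or below larvae ranged from 32 to 47 at early ommochrome and from 17 to 30 at late ommochrome, and no member was called in the late against early step, in any of the 4 morph comparisons or in peak height (0 to 0). Under the other alternatives both counts against larvae, above and below together, stayed within 1.5 times of 46 and 26. Array weights called 1 member between morphs at early ommochrome. The Rosa-picked count in Linea ranged from 14 to 45 without 1 library and was 0 with the replicate block, which leaves 2 residual degrees of freedom. The Linea-picked count in Rosa ranged from 0 to 19, and was 7 with quantile normalization. It was 57 with the scaling and spread of all libraries, which include those that made the choice. With the replicate block the counts against larvae were 46 and 20. Shares of all tested transcripts called were not computed under any of these alternative settings. The labels do not say that a replicate number marks a shared source, and deviations of same-numbered libraries correlated at -0.18 to 0.38 over 11 pairs of groups, 6 of them over 0.1. The highest, 0.38, was that of Linea with Rosa pre-pigment wings. The rule picked again 71 to 99 of the 100 members without 1 library, 90 from RPKM as deposited, 85 with a pseudocount of 0.1, 70 with the pre-pigment mean and 71 against the highest single other library. No named member reversed. The causes were not tested. Read depth is unknown, so no detection limit is given.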

Other observations

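A few members were also high in 2 Linea libraries of different stages. JC_0094305, JC_0093657 and JC_0092802, singled out after their values were seen, were the members whose levels in both Linea early ommochrome replicate 2 and Linea late ommochrome replicate 1 were at least 2-fold above the other 10 libraries outside pre-pigment. JC_0094305 had 65.5 and 48.8 scaled RPKM in those libraries, at most 3.08 in the other 10 and 50.6 to 102.8 in pre-pigment wings. JC_0093657 had 16.9 and 35.4, at most 2.88 in the other 10 and 14.4 to 28.3 in pre-pigment wings. JC_0092802 had 97.7 and 65.2, at most 10.2 in the other 10 and 59.6 to 104.4 in pre-pigment wings. In these members both Linea libraries were thus near the pre-pigment level. The pattern was found in 52 of the tested transcripts (0.329%).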
